A study of Mus musculus with 12 samples.

Results

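The comparison set the forebrain of newborn mice labelled as lacking exon 7 of Auts2 in the whole body against that of wild-type mice, by RNA sequencing of individual animals. It holds 6 of the 12 libraries of the series, chosen by their labels as postnatal day 0 (P0) forebrain, with 3 in each group. The 3 knockout mice carry the strain label cmv-cre_auts2-ex7koko. They come from the floxed Auts2-ex7 allele (Auts2tm1.1Dare) and the Cmv-cre transgene (B6.C-Tg(CMV-cre)1Cgn/J), whose promoter drives Cre recombinase in essentially all tissues and the germ line, so the loss is not limited to neurons. The 3 controls are labelled BL6 WTLM, and the protocol describes controls as littermates. Whether they carried Cmv-cre is not given in the sources used here. All 6 animals are labelled male, and each library comes from 1 animal, so p-values measure the spread between individual mice. Values at postnatal day 14 (P14) are set beside some results. They come from hippocampus of 3 male knockouts made with B6.Cg-Tg(Nes-cre)1Kln/J, a Cre line of neural progenitors and their progeny, and 3 males labelled auts2-ex7-fl-het. P14 therefore differs from P0 in tissue, age, Cre line and control genotype together.

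AUTS2 is a neurodevelopmental protein that is made as a long form and as shorter forms starting at internal promoters. In the nucleus it joins a variant Polycomb repressive complex 1 that activates transcription, and in the cytoplasm it acts on Rac1 and Cdc42, the small GTPases that shape neurites and guide migrating neurons. Fbrs and Fbrsl1 encode the related proteins of its family. At birth the forebrain is rich in immature neurons, upper cortical layers are being completed, and the production of astrocytes and synapses is at its start.

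The deposited values are raw counts of reads per gene, with totals from 11247150 to 16796797 per P0 library. Levels are given below as CPM, counts scaled for library size, always in the order of replicates 1, 2 and 3. The labels number knockouts 1 and 2 and wild types 1 and 2 as libraries 1407 to 1410, called here the first series, and knockout 3 and wild type 3 as libraries 1415 and 1416, the second series. The mouse numbers of knockouts 1 and 2 are close to each other and apart from those of the other 4 P0 mice. Within the first series, genotype and this run of mouse numbers cannot be told apart, and the labels do not say what the numbers follow. The spread behind the main P0 p-values comes from knockout 1 against 2, wild type 1 against 2, and how the genotype difference varied between the series. Any spread between runs of mouse numbers enters only through the last of these. On the first principal component of log2 CPM (35.6% of the variance), wild types 1 and 2 stood apart at -27.0 and -27.1. Wild type 3 lay at 2.38 and the knockouts at 15.8, 20.9 and 15.1, as the principal component plot shows. The libraries had the markers of perinatal forebrain: immature-neuron markers summed to between 10459 and 12052 CPM. Adult-type oligodendrocyte and myelin markers summed to 116 to 143 CPM, and those of skin, muscle and bone to at most 40.3 CPM. Choroid plexus markers summed to 1352, 1272 and 1224 CPM in the knockouts and 1161, 981 and 1201 CPM in the wild types, and the embryonic globin genes Hba-x and Hbb-y had 0 counts in every P0 library.

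**Figure D1:**
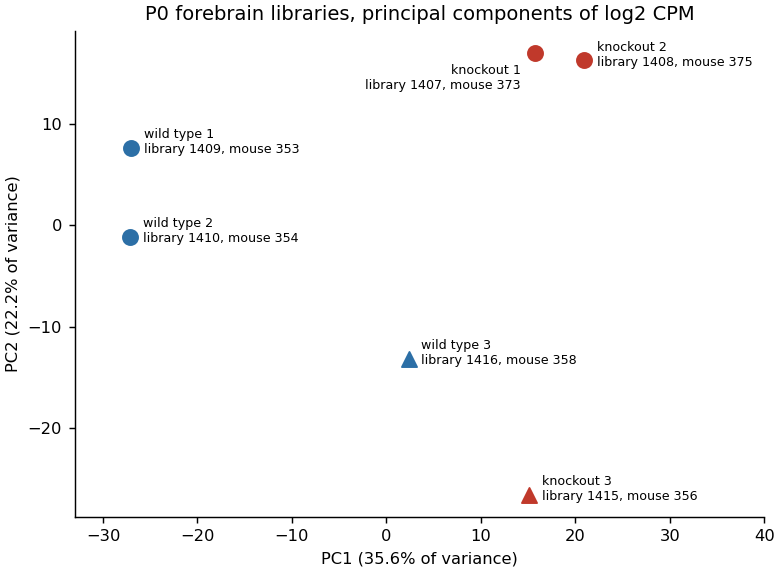
Each point is 1 P0 library placed by its first principal component (x axis) and second principal component (y axis) of log2 CPM, with the share of variance in percent on each axis; colour gives the genotype and shape the library-number series. Wild types 1 and 2 lie apart from the other 4 libraries on the x axis, and knockout 3 and wild type 3 lie lowest on the y axis.

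Auts2 (ENSMUSG00000029673) occupies positions 131437333 to 132543344 of chromosome 5 in GRCm38, on the minus strand. Its level was 176, 194 and 172 CPM in the knockouts and 172, 146 and 167 CPM in the wild types. The groups overlapped, since wild type 1 was as high as knockout 3. The log2 fold change of knockout over wild type was 0.16 (SE 0.08, edgeR adjusted p 0.276). Permuting the 6 library labels gave an exact two-sided p of 0.2, where 0.1 is the smallest p that 3 against 3 allows. These counts add up all isoforms over the whole gene, so they neither measure exon 7 nor check the labels. The difference passed the threshold in 1 of 13 other settings and in 0 of 6 fits with 1 library left out, and was as low as 0.08. The setting that passed had the genomic span of each gene as an offset, chosen after seeing the data (0.37, edgeR adjusted p 0.0202). Of the relatives, Fbrs differed by 0.08 (edgeR adjusted p 0.633). Fbrsl1 was at 82.4, 88.2 and 95.5 CPM in the knockouts and 70.3, 74.7 and 77.9 CPM in the wild types. Every knockout library lay above every wild-type library for Fbrsl1, and its log2 fold change of 0.25 (SE 0.07) did not pass the threshold (edgeR adjusted p 0.0743).

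Among the genes called higher in the knockout forebrain were transcription factors of immature cortical neurons and components of the cytosolic ribosome. Among those called lower were genes of synapses, ion channels, cell adhesion and glia. In edgeR's quasi-likelihood model, with a term for the library series, 465 of 16176 genes passed a Benjamini-Hochberg adjusted p of 0.05, which is 2.87% of those tested. Of these, 148 rose (0.915% of genes tested) and 317 fell (1.96%), so 68.2% of the calls were falls. That share was 57.4% with the transcript length of each gene as an offset, 78.9% without the series term and 55.1% on the first series alone. Most changes were small. The median log2 fold change was 0.39 among genes that rose and -0.46 among those that fell, and 26 genes changed by 1 or more on the log2 scale. Groups did not overlap for 449 of the 465, against 21.6% of all genes tested, and an unadjusted p under 0.05 was found for 3129. The 465 were selected by p-values from these same 6 libraries, which favours separated groups, so the separation is not separate support. The plot of fold change against level shows the falls spread over a wide range of expression. The number of calls rested on single libraries: it was 5 without wild type 1, 14 without knockout 1 and 30 without knockout 2, but 2139 without knockout 3 and 2112 without wild type 3. It was 230 without wild type 2 and 147 without the series term, and none of the 465 changed direction in these fits. No list below had a call without wild type 1, except for 1 fall among the Zfp genes.

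**Figure D2:**
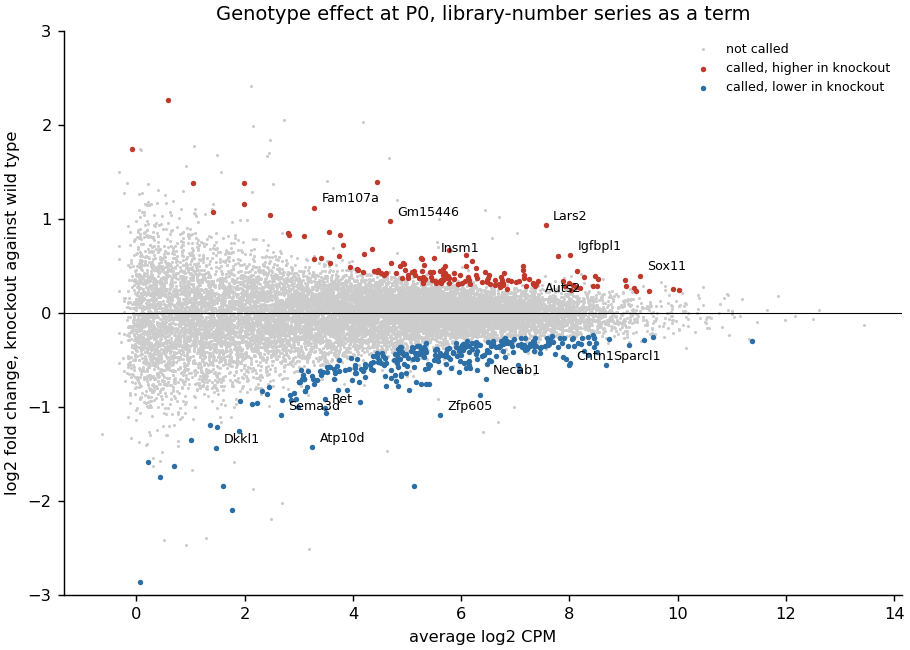
Each point is a tested gene, with the average log2 CPM on the x axis and the log2 fold change of knockout over wild type on the y axis; coloured points passed an adjusted p of 0.05. The 148 rises and 317 falls mostly lie within 1 log2 unit of 0, and Zfp605 is labelled at -1.09.

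Zfp605, a zinc finger gene on chromosome 5 from 110110092 to 110129794, was at 35.5, 32.5 and 25.1 CPM in the knockouts and 79.5, 69.2 and 50.6 CPM in the wild types. All knockouts lay below all wild types, with the second series lower in both groups (log2 fold change -1.09, SE 0.09, edgeR adjusted p 7.25e-05). Atp10d, a lipid flippase gene annotated as a polymorphic pseudogene, was at 5.37, 4.70 and 4.97 CPM against 16.5, 16.01 and 9.51 CPM, with wild type 3 between the knockouts and the other wild types (log2 fold change -1.43, SE 0.18, edgeR adjusted p 0.00314). Sema3d, a secreted axon guidance cue, was at 4.26, 3.82 and 3.87 CPM in the knockouts and 9.02, 8.35 and 8.14 CPM in the wild types. Its groups were tight and well apart (log2 fold change -1.09, SE 0.17, edgeR adjusted p 0.00901). Clgn, an endoplasmic reticulum chaperone best known from testis, fell by 1.07 on the log2 scale and was closer between the groups in the second series (-0.48) than in the first (-1.40), a gap that did not pass its own test (edgeR adjusted p 0.0703). Other large falls were at low levels: Bspry (-1.84), the acrosomal protein gene Dkkl1 (-1.44), the protease gene Bace2 (-1.35), the leak potassium channel gene Kcnk4 (-1.26) and 5430403G16Rik (-1.22), with edgeR adjusted p from 0.0157 to 0.0408. The pseudogene Gm4322 had the lowest log2 fold change of the named falls, -2.09, but its groups overlapped, since wild type 3 was at 1.19 CPM, within the knockouts' range.

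Among the largest rises, the gene with identifier ENSMUSG00000118642, for which the annotation used here gives no symbol, was at 25.1, 26.5 and 40.4 CPM in the knockouts and 8.29, 9.40 and 17.8 CPM in the wild types. Groups did not overlap, and knockout 3 and wild type 3 were each the highest of their group (log2 fold change 1.39, SE 0.12, edgeR adjusted p 7.25e-05). Lars2, the mitochondrial leucyl-tRNA synthetase gene, was at 94.4, 123.1 and 546 CPM against 60.8, 65.9 and 239 CPM. The second series stood far above the first in both genotypes, the groups overlapped, and the log2 fold change with the series as a term was 0.93 (SE 0.12, edgeR adjusted p 0.0079). The antisense gene Gm15564 had the same pattern, from 0.435 CPM in wild type 2 to 11.4 CPM in knockout 3 (log2 fold change 1.38, SE 0.28, edgeR adjusted p 0.0226). Without strand, reads of an antisense gene cannot be told from those of its partner. What sets Lars2, Gm15564 and ENSMUSG00000118642 apart between the series was not tested.

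Fam107a, an actin-associated gene induced by stress hormones, was at 13.1, 11.4 and 14.6 CPM in the knockouts and 6.85, 7.83 and 3.98 CPM in the wild types. Its groups were apart, and wild type 3 was lowest (log2 fold change 1.12, SE 0.21, edgeR adjusted p 0.0223). Mir17hg, the host transcript of the miR-17-92 cluster of growth-promoting microRNAs, was at 8.94, 7.63 and 5.62 CPM against 2.25, 4.44 and 3.74 CPM, again with no overlap (log2 fold change 1.04, SE 0.25, edgeR adjusted p 0.0414). Further rises were those of Cacng1, a calcium channel gamma subunit of muscle (1.39), Hif3a, a hypoxia-inducible factor (0.86), Ovgp1, an oviductal glycoprotein gene (0.85), Gm14286 (1.16, antisense), A430106G13Rik (1.08), 3110053B16Rik (0.83) and Gm15446 (0.98), with edgeR adjusted p from 0.0275 to 0.0474. Of the large changes named here, the falls of Atp10d, Zfp605, Sema3d and 5430403G16Rik and the rise of Gm15446 lie on chromosome 5. Chromosome 5, which carries Auts2, holds 6.58% of the genes tested.

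**Figure D3:**
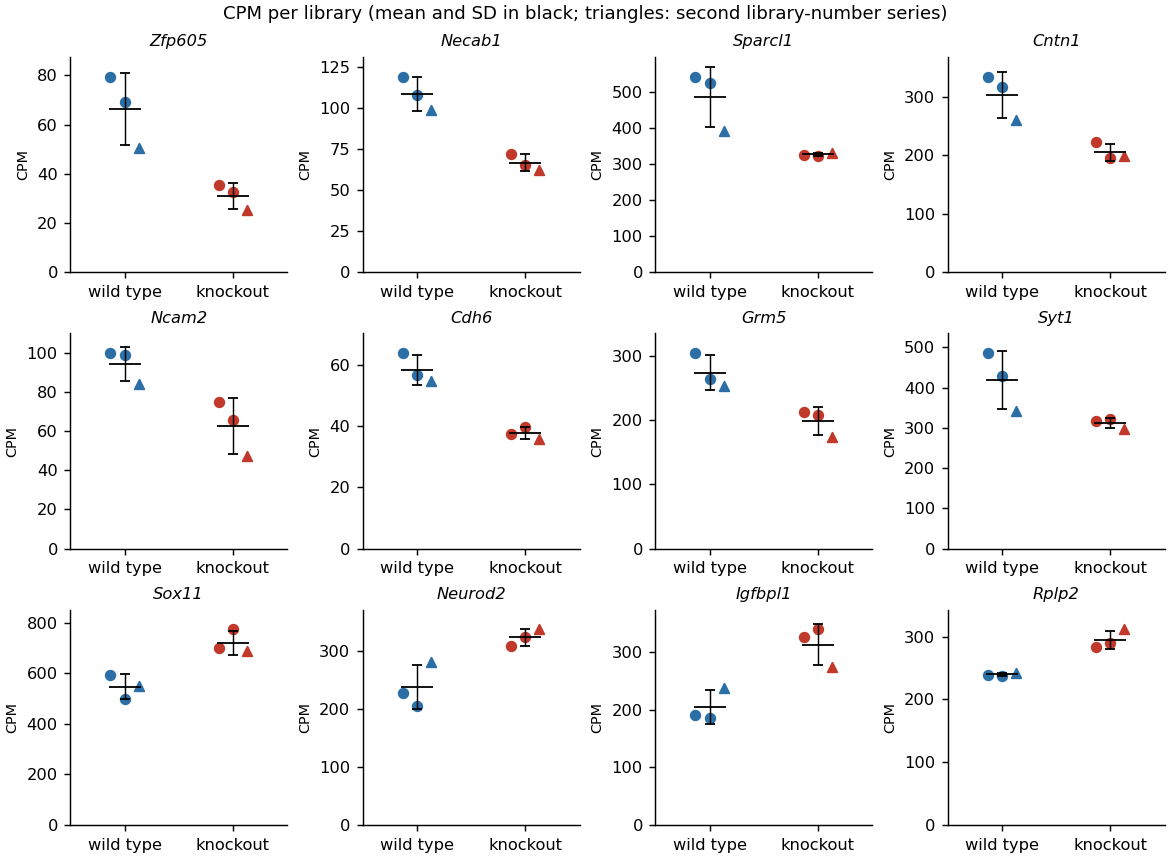
Each panel shows 1 gene, with CPM on the y axis from 0 and the wild-type and knockout libraries on the x axis; points are single libraries, shape gives the library-number series, and the black bars give the group mean and SD. The first 8 panels are genes called lower and the last 4 genes called higher; Zfp605 separates the groups in both series, and Sparcl1 and Syt1 have wild type 3 nearest to the knockouts.

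Several transcription factor genes of newborn cortical neurons rose in the knockout forebrain. Of 20 markers of immature and migrating neurons, 5 rose and 0 fell, 17 had a positive log2 fold change, and the list's median was 0.23 against -0.0012 over all genes tested. Sox11, a SoxC factor that drives neuronal differentiation, was at 700.3, 773 and 686 CPM in the knockouts and 594, 496 and 548 CPM in the wild types. Neurod2, a differentiation factor of excitatory neurons, was at 308, 324 and 337 CPM against 227, 205.2 and 280.1 CPM. Both separated the groups completely, with log2 fold changes of 0.40 (SE 0.07) and 0.45 (SE 0.07, edgeR adjusted p 0.0181 and 0.0103). Nfia, a nuclear factor I gene of neuronal maturation and gliogenesis, was at 77.3, 99.5 and 92.8 CPM against 68.7, 58.7 and 66.4 CPM, and spans 346 kb (log2 fold change 0.48, SE 0.10, edgeR adjusted p 0.0261). Igfbpl1, a secreted protein of newborn neurons, was at 326, 339 and 273 CPM against 192, 185 and 238 CPM. Its difference was 0.82 in the first series and 0.20 in the second (log2 fold change 0.61, SE 0.11, edgeR adjusted p 0.0283).

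The same direction held for Insm1, a zinc finger factor of intermediate progenitors, at 52.3, 56.2 and 53.1 CPM in the knockouts and 36.8, 31.1 and 39.5 CPM in the wild types (log2 fold change 0.59, SE 0.09, edgeR adjusted p 0.00951). It was the 1 called gene of 12 intermediate-progenitor markers (8.33%), whose median was 0.23 (0.26 in the first series and 0.13 in the second). Among 17 upper-layer markers, 3 rose and 1 fell (23.5% called), with a median of 0.23 in the first series and -0.04 in the second. The POU factors Pou3f3 and Pou3f1 and the LIM-homeobox factor Lhx2, which patterns the cortex, rose by 0.38, 0.32 and 0.43, and Kitl, the ligand of the receptor Kit, fell by 0.33 on the log2 scale (edgeR adjusted p from 0.0119 to 0.0442). Fezf2, which specifies subcerebral projection neurons of the deep layers, was at 65.6, 66.01 and 68.6 CPM against 48.5, 46.6 and 54.3 CPM with no overlap (log2 fold change 0.42, SE 0.08, edgeR adjusted p 0.015). It was the 1 call of 20 deep-layer and subplate markers (5%, against 2.87% of all genes tested), with a median of -0.04. The count of 5 immature-neuron calls became 4 with the span of the gene as an offset and 3 without the series term, and 1 with the mouse-number run as a term.

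Most genes for cytosolic ribosomal proteins had a small positive difference, and some passed the threshold. Of 82 tested, 12 rose and 0 fell (14.6% called, against 2.87% of all genes tested). A positive log2 fold change was found for 78, and the median was 0.17 (0.16 in the first series and 0.20 in the second). Rpl37, of the large subunit, was at 174, 171 and 171 CPM in the knockouts and 124.4, 132 and 145.5 CPM in the wild types. Fau, whose product is processed to a ubiquitin-like protein and the small-subunit protein S30, was at 278, 259 and 309 CPM against 209, 224 and 245 CPM. Rpl35a was at 182, 184 and 185 CPM against 143, 146 and 156 CPM, and the stalk protein gene Rplp2 was at 283, 289.6 and 312 CPM against 239.6, 238 and 243 CPM. None of these 4 genes had overlapping groups, and their log2 fold changes lay between 0.30 and 0.36 (edgeR adjusted p from 0.0171 to 0.0231). The share of all counts on these genes was 2.84, 2.78 and 2.90% in the knockouts and 2.53, 2.53 and 2.52% in the wild types. Ribosomal protein genes have many processed pseudogenes, so the level of single members is uncertain. The 12 calls became 3 with the span of the gene as an offset and 2 without the series term.

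Transcripts of ribosomal protein genes typically begin with a run of C and T, the terminal oligopyrimidine tract, through which growth signals control their translation. The windows below show the 15 bases before and the 15 bases from RefSeq start sites of 5 called genes, with any unbroken C and T run at the start site in capitals. They are from RefSeq promoters on GRCm38.p6, 5′ to 3′ on the gene's strand, and the start is base 16. Rpl35a has 3 listed starts, and all are shown, at chr16:33056438-33056467, chr16:33056467-33056496 and chr16:33056499-33056528. Fau is at chr19:6057932-6057961, Rplp2 at chr7:141447636-141447665 and Rpl37 at chr15:5116598-5116627, and these 4 genes are on the plus strand. Rps7, chosen after its log2 fold change of 0.26 was seen, is at chr12:28635939-28635968 on the minus strand.
Fau: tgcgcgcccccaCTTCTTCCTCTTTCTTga
Rplp2: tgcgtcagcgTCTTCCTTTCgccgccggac
Rpl35a, start 1: gcggggcgtgcgTCCCacaaggccgcgcgg
Rpl35a, start 2: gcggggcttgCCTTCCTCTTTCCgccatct
Rpl35a, start 3: gcgcctgtggaggtgaggggggttcctgct
Rps7: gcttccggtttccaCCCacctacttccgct
Rpl37: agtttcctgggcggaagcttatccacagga
A run of at least 6 bases of C or T over the start site was found at 1 or more listed starts of 3 of the 8 called genes with a listed start, of 20 of 61 tested ribosomal protein genes (32.8%) and of 962 of 11442 genes tested (8.41%). The genes with such a run were Fau, Rplp2 and, at 1 of its 3 starts, Rpl35a. The run was 3 bases long for Rps7 and 0 for Rpl37, and it was 0 at every listed start of the other 3, Rpl22, Rpl36a and Rps19, which were named after their windows were seen.

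Of 76 nuclear genes of oxidative phosphorylation, 3 rose and 0 fell (3.95% called, against 2.87% of all genes tested). The rises were the complex I subunit genes Ndufb10 (0.30) and Ndufs6 (0.43) and the cytochrome oxidase subunit gene Cox6a1 (0.34; edgeR adjusted p from 0.0149 to 0.0493). Cox6a1 was at 188, 180.5 and 205.1 CPM in the knockouts and 141, 145.1 and 166 CPM in the wild types, with no overlap. All 13 mitochondrially encoded genes had a negative log2 fold change (median -0.19, 7.69% called). Of these, mt-Nd2, a complex I subunit, passed the threshold (log2 fold change -0.30, SE 0.07, edgeR adjusted p 0.0485). It was at 2531, 2510.1 and 2075 CPM in the knockouts and 3471, 3243 and 2166 CPM in the wild types, and the groups overlapped, since wild type 3 lay below every knockout except number 3. The list's median was -0.36 in the first series and 0.06 in the second, and the share of counts on the mitochondrial chromosome was 3.18, 3.08 and 2.65% in the knockouts and 3.68, 3.42 and 2.64% in the wild types. The second series had nearly equal shares in both genotypes, and the gap was in the first. Mitochondrial ribosomal proteins had 0 calls of 77.

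The falls included many adhesion molecules, through which axons and dendrites recognise each other. Of 46 cadherins and non-clustered protocadherins, 9 fell and 0 rose (19.6% called, against 2.87% of all genes tested). Their median was -0.20 (-0.22 in the first series and -0.22 in the second). Of 43 contactins and other immunoglobulin-family adhesion genes, 11 fell and 0 rose (25.6% called). Their median was -0.20 (-0.13 in the first series and -0.15 in the second). Cdh6, a cadherin of layer and nucleus boundaries, was at 37.5, 39.7 and 35.7 CPM in the knockouts and 63.8, 56.6 and 54.7 CPM in the wild types. Cntn1, a glycosylphosphatidylinositol-anchored contactin of axons, was at 222, 195 and 198 CPM against 334, 317 and 259 CPM. For both, every knockout was below every wild type, with log2 fold changes of -0.63 (SE 0.08) and -0.56 (SE 0.07, edgeR adjusted p 0.00543 and 0.00553). Ncam2, a neural cell adhesion molecule, was at 74.96, 65.7 and 47.2 CPM against 99.99, 98.9 and 84.4 CPM, and knockout 3 was lowest (log2 fold change -0.61, SE 0.09, edgeR adjusted p 0.0079). Further falls were those of Cdh12 (-0.83), Cdh7 (-0.52), the X-linked protocadherin gene Pcdh11x (-0.56), the contactin-associated gene Cntnap5a (-0.59) and Cntn4 (-0.55), with edgeR adjusted p from 0.0079 to 0.0188.

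Of 51 synaptic adhesion and scaffold genes, 5 fell and 0 rose (9.80% called, against 2.87% of all genes tested), with a median of -0.10. The teneurin gene Tenm1 fell by 0.59, the latrophilin gene Adgrl3 by 0.36, the postsynaptic scaffold gene Shank3 by 0.36 and the leucine-rich repeat gene Lrfn5 by 0.30 on the log2 scale (edgeR adjusted p from 0.0149 to 0.0407). Shank3 was at 79.05, 86.8 and 108 CPM in the knockouts and 118, 112 and 118 CPM in the wild types, so knockout 3 came near the controls. The clustered protocadherins, which give neurons their surface identity, had 0 calls among 52 and a median of -0.06. Many adhesion genes are very long, and their median span was 120.1 kb for the cadherins and 219.9 kb for the contactin list, against 21.5 kb over all genes tested. Among all genes tested, 4.97% of those spanning 100 to 300 kb fell, and 11.2% of those above 300 kb. For the cadherin list the falls numbered 4 with the span of the gene as an offset and 4 without the series term. For the contactin list they numbered 5 with the span of the gene as an offset and 3 without the series term, and its median with the offset was -0.07. For synaptic adhesion the falls were 1 with the span of the gene as an offset and 0 without the series term.

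Genes of transmitter release and reception increase in the normal forebrain as synapses form. Of 76 genes of synaptic vesicles and their release, 10 fell and 0 rose (13.2% called, against 2.87% of all genes tested). In this list 64 had a negative log2 fold change, and the median was -0.17 (-0.21 in the first series and -0.06 in the second). Slc17a7, the vesicular glutamate transporter of cortical neurons, was at 49.5, 53.1 and 58.3 CPM in the knockouts and 81.5, 65.9 and 85.9 CPM in the wild types. Syt1, the calcium sensor of fast release, was at 318, 321 and 298 CPM against 486, 429.8 and 342 CPM. Groups did not overlap for either gene, and wild type 3 was the lowest wild type for Syt1 and the highest for Slc17a7. The log2 fold changes were -0.54 (SE 0.09) and -0.41 (SE 0.08, edgeR adjusted p 0.0104 and 0.0168). The vesicle glycoprotein gene Sv2c fell by 0.66 and the clathrin adaptor gene Snap91 by 0.32 on the log2 scale (edgeR adjusted p from 0.0079 to 0.0246). The 10 falls became 2 with the span of the gene as an offset and 2 without the series term.

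Of 37 glutamate receptor genes, 6 fell and 0 rose (16.2% called, against 2.87% of all genes tested). Their median was -0.18 (-0.24 in the first series and -0.04 in the second). Grin3a, a modulatory NMDA receptor subunit of developing synapses, was at 108, 102 and 108 CPM in the knockouts and 170.1, 164 and 152 CPM in the wild types, with a gap between the groups larger than the spread within either (log2 fold change -0.61, SE 0.07, edgeR adjusted p 0.00126). Grm5, a metabotropic receptor of the Gq class, was at 213.03, 208 and 173 CPM against 304, 263 and 253 CPM, and Grm3, its Gi-coupled relative also found on astrocytes, was at 32.6, 39.2 and 23.8 CPM against 55.2, 54.1 and 48.8 CPM. Neither overlapped, and both were lowest in knockout 3 (-0.47 and -0.75; edgeR adjusted p 0.0079 for both). Grm7, a presynaptic receptor, fell by 0.46 on the log2 scale (edgeR adjusted p 0.0247). Of 31 genes of GABA and glycine signalling, 29 were negative (median -0.26) and 6 fell (19.4% called). They included the receptor subunits Gabrg3 (-0.49), Gabra4 (-0.36) and Gabbr2 (-0.33) and the GABA transporter Slc6a11 (-0.41; edgeR adjusted p from 0.025 to 0.0468). With the span offset, 3 of the glutamate receptor genes and 0 of the GABA and glycine genes were called lower. Without the series term the falls were 3 and 0.

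Of 77 potassium channel genes, 4 fell, 1 rose and 63 were negative (median -0.17; -0.16 in the first series and -0.14 in the second). The calls were 6.49% of the list, against 2.87% of all genes tested. The falls were Kcnd2, the pore of the A-type current (-0.35), its partner Kcnip2 (-0.48), the silent subunit gene Kcnv1 (-0.42) and Kcnk4, named above. Kcnj11, the pore of the ATP-sensitive channel, rose by 0.47 (edgeR adjusted p from 0.028 to 0.044). Of 35 sodium, calcium and HCN channel genes and their partners, 4 fell and 0 rose (11.4% called, median -0.22). Cacna1a, the P/Q-type calcium channel of nerve terminals, was at 41.5, 49.2 and 55.01 CPM in the knockouts and 75.5, 76.9 and 72.1 CPM in the wild types, with no overlap (log2 fold change -0.62, SE 0.09, edgeR adjusted p 0.0079). The N-type channel gene Cacna1b (-0.30) and the intracellular FGF-related sodium channel partners Fgf12 (-0.40) and Fgf14 (-0.37) fell as well (edgeR adjusted p from 0.023 to 0.0473). The potassium channel falls became 3 with the span of the gene as an offset and 0 without the series term, and those of the other channels 1 with the span of the gene as an offset and 1 without the series term.

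Calbindin, encoded by Calb1, is a calcium buffer of several interneuron and projection neuron types. Calb1 was at 43.7, 39.3 and 50.3 CPM in the knockouts and 69.7, 71.8 and 60.1 CPM in the wild types. The lowest wild type, number 3, lay above the highest knockout, also number 3, and the log2 fold change was -0.59 (SE 0.10, edgeR adjusted p 0.0146; -0.77 in the first series and -0.26 in the second). Of 24 neuronal calcium-binding genes, 6 fell and 0 rose, with a median of -0.31 (-0.47 in the first series and -0.08 in the second). Necab1, an EF-hand protein of cortical neurons, was at 72.3, 65.4 and 62.4 CPM against 119, 108 and 98.8 CPM, with differences of -0.72 and -0.66 in the 2 series (log2 fold change -0.70, SE 0.08, edgeR adjusted p 0.00112). S100a10, the partner of annexin A2 in corticostriatal neurons, fell by 0.82 and the copine gene Cpne4 by 0.42 on the log2 scale (edgeR adjusted p from 0.0104 to 0.0206). The falls in this list were 4 with the span of the gene as an offset and 5 without the series term.

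Of 23 neuropeptide and neurotrophic-factor genes, 4 fell and 0 rose (17.4% called, against 2.87% of all genes tested). These were Tac1 and Pdyn, the precursors of substance P and dynorphin in striatal projection neurons (-0.72 and -0.60), and Ret and Gfra1, which form the receptor of glial cell line-derived neurotrophic factor (-1.01 and -0.37; edgeR adjusted p from 0.0079 to 0.0439). Tac1 was at 20.2, 21.3 and 20.6 CPM in the knockouts and 39.9, 33.1 and 30.1 CPM in the wild types, and Ret was at 6.13, 8.34 and 7.36 CPM against 13.4, 16.96 and 13.8 CPM. The groups were apart for both genes. Among 18 striatal markers, Tac1 and the RGS gene Rgs9 (-0.51) fell (11.1% called). The list's summed level overlapped between the groups (1055, 1083 and 1053 CPM against 1180.4, 1046 and 1102 CPM). Among 26 markers of interneurons, Calb1 was the 1 call (3.85%, against 2.87% of all genes tested).

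Several glial marker genes fell, and the lists' medians differed between the series. Of 21 astrocyte markers, 7 fell and 0 rose (33.3% called, against 2.87% of all genes tested). In total 18 of the markers were negative, and the list's median was -0.30 (-0.44 in the first series and 0.03 in the second). Their summed level was 1870.0, 1855 and 2047 CPM in the knockouts and 2548, 2570.3 and 2011 CPM in the wild types, so wild type 3 lay within the knockouts' range. In bulk tissue, fewer cells of a type and less RNA per cell cannot be told apart. Sparcl1, a secreted matrix protein of astrocytes, was at 327, 324 and 331 CPM against 544, 526 and 391.97 CPM. Gja1, the astrocytic gap junction protein connexin 43, was at 68.5, 63.97 and 61.01 CPM against 100.3, 102 and 73.3 CPM. Both genes had wild type 3 nearest to the knockouts without overlap (-0.56 and -0.49; edgeR adjusted p from 0.0108 to 0.0122). The bicarbonate transporter gene Slc4a4 fell by 0.52 and the glutamate transporter gene Slc1a2 by 0.35 on the log2 scale (edgeR adjusted p from 0.0079 to 0.0239), with second-series differences of -0.49 and -0.27. The astrocyte falls became 5 with the span of the gene as an offset and 3 without the series term, and 2 with the mouse-number run as a term.

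Of 16 markers of oligodendrocyte precursors, 3 fell (18.75% called, against 2.87% of all genes tested). The list's median was -0.26 (-0.29 in the first series and -0.07 in the second). The falls were Gpr17, a receptor of precursors about to differentiate (-0.78), the transcription factor gene Olig1 (-0.35) and the protocadherin gene Pcdh15 (-0.38), with edgeR adjusted p from 0.0122 to 0.0483. Of 19 microglial markers, P2ry12, the purinergic receptor of resting microglia, and the protease gene Ctss fell (10.5% called). The microglial list's median was -0.22 (-0.34 in the first series and -0.03 in the second), with 5 markers positive and 14 negative. P2ry12 was at 4.51, 4.79 and 3.81 CPM in the knockouts and 8.93, 8.70 and 7.37 CPM in the wild types, and its difference was -0.90 in the first series and -0.92 in the second (log2 fold change -0.93, SE 0.17, edgeR adjusted p 0.0149). Microglial markers summed to 143, 138 and 152 CPM in the knockouts and 181, 183 and 155 CPM in the wild types, without overlap but with a narrow gap in the second series. Of 20 radial glia markers, Lhx2 rose and Ptprz1, Ednrb and Slc1a3, which astrocytes also express, fell (-0.34, -0.31 and -0.35; edgeR adjusted p from 0.0154 to 0.0442). The list's median was -0.02.

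Chaperones of the endoplasmic reticulum formed a further group of falls. Of 19 genes of the unfolded protein and ATF4 responses, 4 fell (21.1% called, against 2.87% of all genes tested). These were Hspa5, the lumenal chaperone BiP, Calr and Hsp90b1, which fold glycoproteins and receptors, and the disulfide isomerase gene Pdia4. Hspa5 was at 181, 209 and 242 CPM in the knockouts and 315, 299 and 295 CPM in the wild types, and Calr was at 241, 257 and 330.0 CPM against 372.996, 362 and 389 CPM. Knockout 3 was the knockout nearest to the controls for both, without overlap (-0.53 and -0.45). Hsp90b1 and Pdia4 differed by -0.37 and -0.37 (edgeR adjusted p from 0.0103 to 0.0251). These genes span at most 17.3 kb, and 4 falls were called with the span offset and 2 without the series term. The list as a whole did not lean to 1 side (median -0.01, 9 positive and 10 negative). In the cytosol, Hsph1, a co-chaperone of Hsp70, and the auxilin gene Dnajc6 fell by 0.38 and 0.31 on the log2 scale (edgeR adjusted p from 0.0122 to 0.0264). With Hspa5 they were the 3 calls of 72 chaperonin and heat shock genes (4.17%, against 2.87% of all genes tested). That list did not lean to 1 side either (median -0.005, 33 positive and 39 negative).

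**Figure D4:**
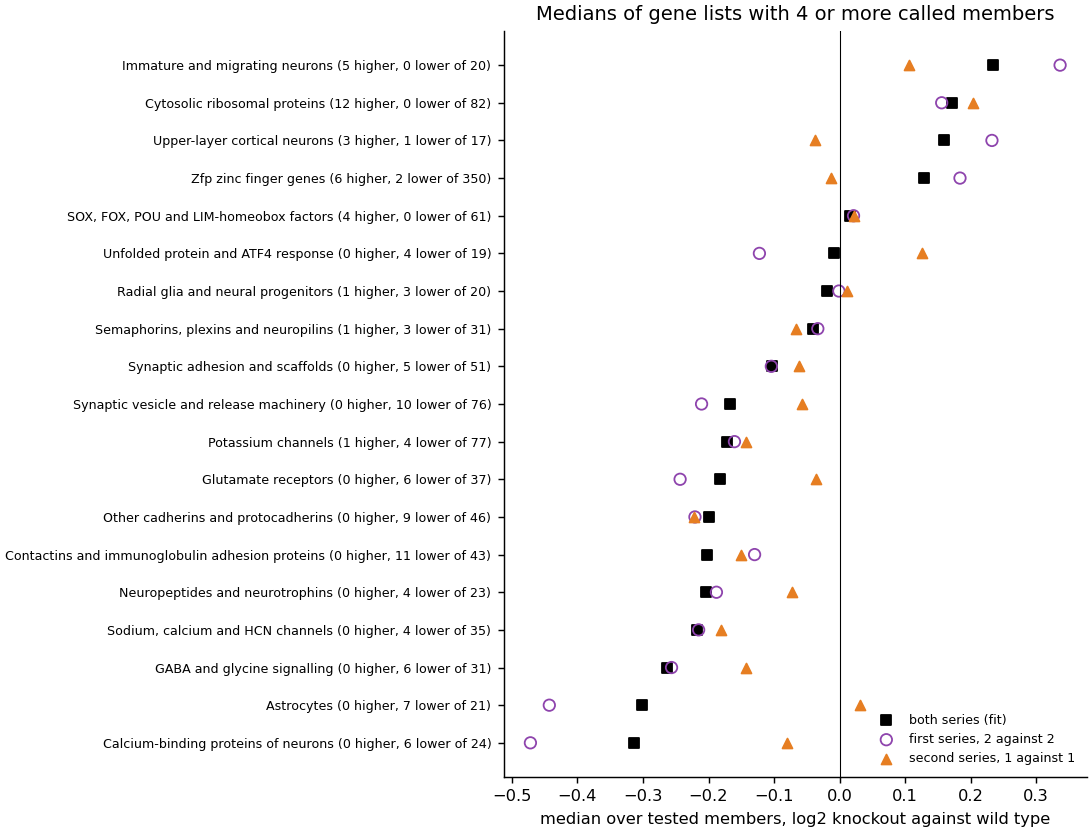
Each row is a gene list with at least 4 called members (1 such list is not shown), and the x axis gives the median over its tested members of the log2 difference, knockout against wild type; squares are the fit over both series, circles the first series and triangles the second. The squares run from positive for immature neurons (0.23) and ribosomal proteins (0.17) to negative for astrocytes (-0.30) and neuronal calcium-binding proteins (-0.31).

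Of 39 genes of the Polycomb complexes, 2 rose and 0 fell (5.13% called, against 2.87% of all genes tested). The list is wider than the variant complex that AUTS2 joins. The rises were the canonical subunits Pcgf2 (0.33) and Phc2 (0.30; edgeR adjusted p from 0.035 to 0.0468). Pcgf2 was at 81.3, 90.8 and 106 CPM in the knockouts and 69.3, 71.7 and 79.2 CPM in the wild types, so the lowest knockout lay just above the highest wild type. Without the series term neither passed. Some genes that act with Rac1 or Cdc42 are given as single calls, without a count over a list, so they do not show how such genes moved as a group. The kinase genes Pak3 (-0.32) and Cit (-0.49) and the exchange factor genes Prex2 (-0.70) and Dock9 (-0.27) fell, and the effector gene Cdc42ep4 rose (0.35; edgeR adjusted p from 0.018 to 0.0414). Pak3, an effector of both GTPases, was at 219, 206 and 194 CPM against 264, 255 and 252 CPM with no overlap. With the span offset none of these 4 falls passed the threshold. Of 36 autism-linked chromatin and transcription regulators, 1 was called (2.78%, against 2.87% of all genes tested). It was the homeodomain organiser gene Satb1, which fell (-0.27, edgeR adjusted p 0.0484).

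Among 31 semaphorins, plexins and neuropilins, 3 fell and 1 rose (12.9% called, against 2.87% of all genes tested). Besides Sema3d, the falls were the secreted cue gene Sema3e, at 6.90, 7.10 and 8.72 CPM in the knockouts and 15.3, 13.7 and 13.96 CPM in the wild types (-0.91), and the receptor gene Plxnc1 (-0.32), and the rise was the transmembrane semaphorin gene Sema4c (0.37; edgeR adjusted p from 0.00875 to 0.049). The ephrin gene Efnb1 rose (0.43) and the receptor gene Epha6 fell (-0.70), as did the netrin receptor gene Unc5c (-0.42; edgeR adjusted p from 0.0151 to 0.04). Efnb1 and Epha6 were the 2 calls of 22 ephrin and Eph receptor genes (9.09%). Unc5c was the 1 call of 35 Slit, Robo, Netrin and other guidance genes (2.86%). In other pathways, Wnt7b, a ligand of cortical neurons and brain vessels, rose (0.37), and so did Slc2a1, the glucose transporter of the blood-brain barrier (0.58), and Ddit4, a brake on mTOR complex 1 (0.55). Egr1, an activity-induced factor, fell (-0.95), and Ier5, another immediate early gene, rose (0.44; edgeR adjusted p from 0.0079 to 0.0465). Wnt7b was the 1 call of 51 Wnt ligands, receptors and modulators (1.96%, median -0.06). Ddit4 was the 1 call of 15 hypoxia response genes (6.67%, median -0.04). Slc2a1 was the 1 rise among 21 glycolysis genes, of which Eno2 fell and 18 were negative (9.52% called). Egr1 and Ier5 were the 2 calls of 21 immediate early genes (9.52%), of which 15 were negative. Slc2a1 was at 48.4, 38.9 and 49.7 CPM against 30.5, 31.1 and 30.1 CPM, and Egr1 at 8.603, 11.9 and 15.1 CPM against 26.96, 20.5 and 21.3 CPM. Groups were apart for both genes.

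Of 350 zinc finger genes of the Zfp series, 6 rose and 2 fell (2.29% called, against 2.87% of all genes tested). Of the 350, 271 were positive, with a median of 0.13, but the median was 0.18 in the first series and -0.01 in the second. The rises with the smallest p were Zfp740 (0.35), Zfp553 (0.43), Zfp1 (0.43) and Zfp788 (0.39), and besides Zfp605 the fall was Zfp365 (-0.42; edgeR adjusted p from 0.0208 to 0.0438). The variant histone genes H2afz (0.29) and H2afv (0.32), the replication helicase gene Mcm7 (0.36) and the splicing factor gene Hnrnpa0 (0.28) rose as single calls or pairs of their lists (edgeR adjusted p from 0.033 to 0.0484). The calls were 2 of 16 histone genes (12.5%), 1 of 25 replication genes (4%) and 1 of 67 HNRNP, SR and splicing factor genes (1.49%). No gene passed in the lists of Cajal-Retzius cells, hippocampal and dentate neurons, mature oligodendrocytes, mural and meningeal cells, choroid plexus, erythroid cells, skin with muscle and bone, mitochondrial ribosomal proteins, proteasome, interferon and complement, Notch or clustered protocadherins, by edgeR's quasi-likelihood test. These 12 lists hold 285 tested genes, of which 50 had an unadjusted p under 0.05 and 2 passed with DESeq2. Over all 16176 genes tested, 3129 had an unadjusted p under 0.05 and 477 passed with DESeq2. Reln, the secreted positioning signal of Cajal-Retzius cells, was at 148, 175 and 130.2 CPM in the knockouts and 157, 133.5 and 159 CPM in the wild types, and the groups overlapped.

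Genes that fell were long. The genomic span of a gene, from its annotated start to its end with introns, had a median of 87.3 kb among the 317 falls, 9.71 kb among the 148 rises and 21.5 kb among all genes tested. A span over 100 kb was found for 46.7% of the falls, 4.05% of the rises and 14.2% of all genes tested. The share of tested genes that fell rose from 0.684% at up to 10 kb through 1.09%, 1.99% and 4.97% to 11.2% above 300 kb, with limits at 30 and 100 kb between. The share that rose went from 1.51% to 0.374%. Median log2 fold changes declined from 0.02 to -0.14 in the first series and from 0.11 to -0.19 in the second, as the plot by span shows. The share of counts on genes over 100 kb was 17.5, 17.8 and 16.2% in the knockouts and 18.6, 17.8 and 18.01% in the wild types, so the groups were apart by little (knockout 2 against wild type 2). Median GC content was 46.7% for falls, 52.3% for rises and 49.5% for all genes tested. With span as an offset, 303 genes were called, 111 higher and 192 lower, of which 241 were among the 465. The cause of the relation with span was not tested.

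**Figure D5:**
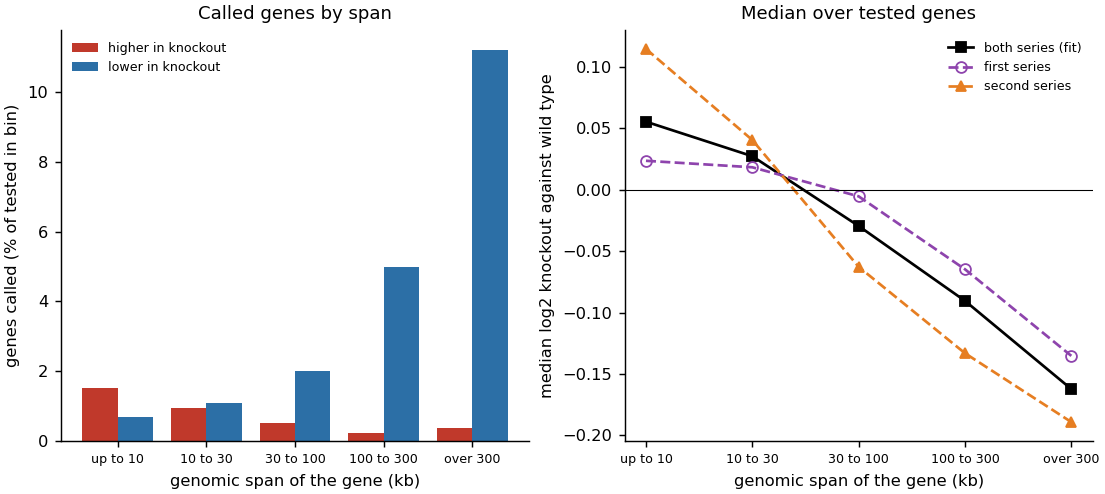
Tested genes are grouped on the x axis by genomic span in kb, with the share called higher and lower in percent on the y axis of the left panel (bars) and the median log2 difference, knockout against wild type, on that of the right panel, for the fit over both series and for each library-number series. The share lower climbs from 0.684% to 11.2%, and both series' medians decline with span.

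On chromosome 5, which carries the targeted gene, 51 of 1065 genes were called (4.79%, against 2.87% over all genes), 16 higher and 35 lower. The X chromosome had 25 of 576 (4.34%). Within 5 Mb of Auts2, 8 of 111 genes were called (7.21%), 3 of them higher. Within 10 Mb it was 12 of 271 (4.43%), and within 20 Mb 21 of 486 (4.32%). These genes include Mcm7, Hsph1, Cit, Cox6a1 and Col26a1, a collagen gene that fell by 0.65 on the log2 scale (edgeR adjusted p 0.0226). Zfp605 and Gm15446 lie further away, at 110110092 and 109923400.

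The 2 library-number series were compared through the interaction of genotype with series, which rests on a second series of 1 library in each group. It passed for 560 of 16176 genes (3.46%), and 22 of these were among the 465 genotype calls. The 465 calls had the same direction in both series, as did 56.3% of all genes tested. Since the calls were selected on these same libraries, this is not separate support for them. Igfbpl1, Sparcl1, Slc1a3, Pou3f3, Gm15446, Eno2 and mt-Nd2 were among the calls with a smaller difference in the second series, and Fam107a and Tenm1 among those with a larger one. Eno2, the neuronal enolase, was at 78.4, 77.1 and 97.2 CPM in the knockouts and 120.5, 118 and 108 CPM in the wild types, so the gap was -0.62 in the first series and -0.15 in the second.

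Against P14 hippocampus, the genotype effect differed for 413 of 18189 genes (2.27%). The immature-neuron genes Sox11 and Igfbpl1 were among them. Sox11 had a log2 fold change of 0.40 at P0 and -0.58 at P14, and Igfbpl1 of 0.61 and -0.67 (edgeR adjusted p of the difference 7.73e-05 and 0.000831). Mir17hg was 1.04 at P0 and -1.51 at P14. Among the falls, Necab1, Cdh6 and Grin3a were at -0.70, -0.63 and -0.61 at P0 and at 0.25, 0.34 and 0.30 at P14. Calb1 was at -0.59 and -0.41 (edgeR adjusted p of the difference 0.639). Auts2 itself was at 0.16 and -0.30, a difference of 0.48 (edgeR adjusted p 0.0489). That difference passed the threshold in 6 of 17 other settings, with adjusted p from 0.00153 to 0.159.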

How the data were processed

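RNA from individual forebrains was made into Illumina TruSeq libraries and sequenced in pairs of 150 bp reads, per the labels' protocols. The deposited files hold raw counts per Ensembl gene for each library, and the unstranded column was used, since both strand columns were alike. The build GRCm38 (mm10) and the tools STAR 2.7.5a and edgeR 3.12 are given per the submitters' processing notes. GENCODE vM21 gave symbols for 55227 of 55487 identifiers, and start-site windows are from RefSeq. Counts of the 6 libraries were tested in R 4.3.3 with edgeR 4.0.16 (filterByExpr, TMM, robust glmQLFit, glmQLFTest, terms for genotype and library-number series, 3 residual degrees of freedom, Benjamini-Hochberg adjustment, threshold 0.05). The biological coefficient of variation was 0.0864. CPM use TMM-scaled library sizes, and log2 CPM a prior count of 2. Differences within a series are of mean log2 CPM. Groups follow the labels, and replicate numbers follow accession order. Replicate pairs differed by more than counting noise (chi-square per degree of freedom from 2.93 to 12).

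The 62 gene lists, the genes followed and the alternatives were chosen with earlier results of these data known. Named genes are Auts2, Fbrs, Fbrsl1 and Calb1, the 12 largest rises and falls past the threshold at a mean level of 1 log2 CPM or more and with 1 direction in both series, up to 4 called genes per list and direction by smallest p, and up to 2 highest-level genes of lists with no calls. Some genes eligible by this rule are not reported here, and Rps7, Rpl22, Rpl36a and Rps19 were chosen after their values were seen. On simulated counts for 16176 genes with 200 changed by 2-fold, the P0 test recovered 94% and 10.9% of its calls were false. That false share was above the one the adjusted p threshold is set to allow. The series interaction recovered 44%, and the comparison of P0 with P14 recovered 71% among 18189 genes. These recovered shares hold for 2-fold changes only. Of the 465 P0 calls, 26 changed by 2-fold or more, and the recovery of smaller changes was not measured. Alternatives were fits without the series term, with the mouse-number run, on the first series alone or on all 12 libraries, RLE and upper-quartile normalization, DESeq2 1.42.0, other filters and thresholds, non-robust fitting, offsets for GC content, transcript length and genomic span (the last chosen after seeing the data), and each library left out. Exon-level and isoform-level analysis was not done here.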

Additional observations from a re-analysis of the deposited data

Results flagged for a closer look

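Some genes named above had a genotype effect at P0 that differed from that at P14 by edgeR's interaction test (adjusted p under 0.05), where tissue, age, Cre line and control genotype differ together. The differences, P0 minus P14 on the log2 scale, are in parentheses. The effect at P0 was the more positive for Auts2 (0.48), Cdc42ep4 (0.56), Ddit4 (0.73), ENSMUSG00000118642 (1.33), Gm14286 (1.51), Gm15446 (1.20), H2afv (0.52), Igfbpl1 (1.30). This also held for Lhx2 (0.53), Mir17hg (2.58), Neurod2 (0.53), Nfia (0.84), Ovgp1 (1.14), Sema4c (0.56), Sox11 (0.99), Zfp788 (0.68). The effect at P0 was the more negative for Atp10d (-1.43), Cacna1a (-0.75), Cdh6 (-0.96), Cdh7 (-1.14), Cit (-1.04), Clgn (-1.24), Cntn1 (-0.46), Dkkl1 (-1.86). Further genes of this kind were Egr1 (-1.27), Fgf12 (-0.49), Gabbr2 (-0.51), Gabrg3 (-0.61), Grin3a (-0.89), Kcnk4 (-1.23), Ncam2 (-0.69), Necab1 (-0.93). Further genes of this kind were P2ry12 (-0.90), Plxnc1 (-0.57), Rgs9 (-0.97), S100a10 (-0.82), Sema3d (-0.76), Sema3e (-0.64), Shank3 (-0.57), Slc17a7 (-0.56). Further genes of this kind were Slc6a11 (-0.61), Sparcl1 (-0.55), Sv2c (-0.87), Zfp605 (-0.91).

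For others the effect differed between the library-number series by the same kind of test, which rests on 1 library of each genotype in the second series. Values are second minus first series, on the log2 scale. The second series was the more positive for Eno2 (0.47), Fam107a (1.13), Slc1a3 (0.43), Sparcl1 (0.47), mt-Nd2 (0.35). The second series was the more negative for Gm15446 (-1.02), Igfbpl1 (-0.62), Pou3f3 (-0.37), Tenm1 (-0.50). The cause of these differences was not tested.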

How the results depend on the processing

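The number of P0 genotype calls, 465 with the series as a term, was 147 without it, 2107 on the first series alone, 720 with the mouse-number run as a term, 1190 unfiltered for low counts, 287 by non-robust fitting and 303 with the genomic span offset chosen after seeing the data. It was 1062 at an adjusted p of 0.1 and 26 with a log2 fold change of at least 1 required as well. The fit with the mouse-number run rests on knockout 3 against the 3 wild types for the genotype effect. The count was 453 with RLE, 451 with upper-quartile normalization, 477 with DESeq2, 462 with at least 10 counts in every library, 412 in 1 fit on all 12 libraries, 692 with the GC offset and 641 with the transcript length offset. Falls were 68.2% of the calls, 78.9% without the series term, 55.1% on the first series, 60.8% with the GC offset and 57.4% with the length offset. Leaving out 1 library gave between 5 and 2139 calls, lowest without wild type 1. All 465 kept their sign in every setting that tested them, and these settings reuse the libraries on which the 465 were selected. The interaction with series passed for 560 genes, 248 with non-robust fitting and 98 with DESeq2. P0 against P14 passed for 413 genes, 843 with no filter, 612 with DESeq2 and between 158 and 1357 with 1 library left out. Of 2619 refits of single named genes, 1841 kept their side of the threshold, 770 fell below it and 8 rose past it. Of 1178 list medians recomputed, 1026 moved by less than the spread between replicates. The cause of these shifts was not tested. No paired analysis was possible because the labels give no replicate numbers that the groups share.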

Other observations

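H2-D1, a classical class I histocompatibility gene, was at 32.03, 16.9 and 33.1 CPM in the knockouts and 29.03, 4.44 and 33.9 CPM in the wild types, so knockout 2 and wild type 2 were the lowest of their groups. Its genotype effect was 0.33 (SE 0.78, edgeR adjusted p 0.868).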
